A study of Homo sapiens with 15 samples.

Results

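NF-κB is a family of transcription factors whose subunits, inhibitors and activating kinases were followed here in HCT116, an established human colorectal cancer line. The genes were chosen by symbol from the table of raw counts. NFKB1 and RELA stood for the subunits, NFKBIA, NFKBIE and NFKBIZ for the inhibitors, and CHUK, IKBKB and IKBKG for the kinase complex. TNFAIP3 and BIRC3 were included as further regulators of the pathway. Of these 10 genes, 9 had a row among the 730 endogenous genes of the NanoString PanCancer Pathways panel, which counts RNA molecules with barcoded probes and no amplification, and NFKBIE was not analysed here.

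The cells were either left untreated (control) or treated for 24 h with 40 µM thymoquinone (TQ), a plant-derived quinone, with 15 µM 5-fluorouracil (5-FU), an inhibitor of thymidylate synthesis, with 35 µM TQ plus 35 µM 5-FU (Combi), or with 35 µM of SARB, a hybrid compound of the 2 drugs. Each of the 5 groups held 3 biological replicates, and the question was how the treatments differed from the untreated cells and from each other. The sources used here do not say whether the control received the solvent. All groups are cultures of 1 cell line, so the replicate spread is that between cultures.

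In resting cells NF-κB dimers such as p50-p65 are held in the cytoplasm by IκB proteins. The IKK complex phosphorylates IκB, which is then degraded, and the freed dimers enter the nucleus and switch on genes of inflammation, survival and cell adhesion. Several of these genes, among them those for IκBα and A20, encode brakes on the same pathway, so that their RNA is often used as a readout of NF-κB activity.

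The promoters were read for the κB consensus, the decamer bound by NF-κB dimers, and matches were found in NFKBIA, NFKBIZ, TNFAIP3 and BIRC3, each called in at least 1 comparison, and in NFKB1, which was called in none with housekeeping scaling. RELA, which had the largest called change of the 9 genes, held no match and is not printed. The 250 bases before each annotated start are given 5′ to 3′ on the gene's strand, from the RefSeq annotation of GRCh38.p14, in lower case with every match to the κB consensus on either strand in capitals.
NFKBIA, chr14:35404750-35404999, minus strand: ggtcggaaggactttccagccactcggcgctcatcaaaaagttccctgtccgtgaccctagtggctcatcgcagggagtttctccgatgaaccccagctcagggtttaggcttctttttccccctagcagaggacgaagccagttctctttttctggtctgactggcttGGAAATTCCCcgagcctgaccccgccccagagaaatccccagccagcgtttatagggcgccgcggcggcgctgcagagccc
NFKBIZ, chr3:101827740-101827989, plus strand: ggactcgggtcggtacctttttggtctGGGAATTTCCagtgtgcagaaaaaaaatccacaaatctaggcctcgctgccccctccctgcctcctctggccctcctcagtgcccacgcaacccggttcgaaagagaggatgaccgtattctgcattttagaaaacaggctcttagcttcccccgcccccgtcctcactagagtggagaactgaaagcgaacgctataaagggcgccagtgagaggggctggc
TNFAIP3, chr6:137867009-137867258, plus strand: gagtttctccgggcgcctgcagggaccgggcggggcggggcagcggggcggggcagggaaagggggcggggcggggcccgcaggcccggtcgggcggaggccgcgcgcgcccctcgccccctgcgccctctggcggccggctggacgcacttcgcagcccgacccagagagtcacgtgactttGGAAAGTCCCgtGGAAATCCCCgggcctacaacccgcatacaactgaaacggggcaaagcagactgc
BIRC3, chr11:102317234-102317483, plus strand: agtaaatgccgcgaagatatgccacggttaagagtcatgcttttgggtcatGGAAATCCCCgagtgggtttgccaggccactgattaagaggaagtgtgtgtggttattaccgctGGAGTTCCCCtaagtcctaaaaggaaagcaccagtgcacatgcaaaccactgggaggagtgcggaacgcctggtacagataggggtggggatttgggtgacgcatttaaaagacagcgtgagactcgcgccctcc
NFKB1, chr4:102501109-102501358, plus strand: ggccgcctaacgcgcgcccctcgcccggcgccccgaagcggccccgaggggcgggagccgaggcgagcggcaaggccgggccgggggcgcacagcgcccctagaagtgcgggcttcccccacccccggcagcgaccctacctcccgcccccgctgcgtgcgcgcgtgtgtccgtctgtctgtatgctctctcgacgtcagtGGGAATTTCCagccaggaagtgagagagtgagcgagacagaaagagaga

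The match in NFKBIA, GGAAATTCCC, began at position -81, counted from the start (the last base before it is -1). TNFAIP3 held 2 matches, GGAAAGTCCC and GGAAATCCCC, at -67 and -55, and BIRC3 also held 2, GGAAATCCCC at -199 and GGAGTTCCCC at -135. NFKB1 and the first window of NFKBIZ held the same 10 letters, GGGAATTTCC, and a second NFKBIZ window, at an alternative start (chr3:101849264-101849513), held GGGGTTTCCC. Promoter windows were found for 8 of the 9 genes measured, and 5 of these 8 held at least 1 match. The windows of RELA, CHUK and IKBKG held none of these letters. Of the 35116 windows in the whole RefSeq set, 9.96% held a match, and 18.5% of the 536 panel genes matched by symbol did so in at least 1 window. A match describes letters in the window and was not tested as a binding site.

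Total counts of endogenous genes ranged from 135017 to 607782 per sample, and the number of genes above the negative probes (mean + 2 SD of 8 probes) from 447 to 599. All 8 epithelial markers on the panel were above that limit in every sample. The samples had been run on 3 cartridges, the first with control 1 and all TQ, 5-FU and SARB samples, the second with control 2, control 3 and Combi 1, and the third with Combi 2 and Combi 3. With the cartridge as a block, TQ, 5-FU and SARB are therefore set against control 1 alone, and Combi is represented by Combi 1 alone. Values are given below as scaled counts, that is counts divided by a sample factor from the geometric mean of the 40 housekeeping genes, whose levels can be compared between samples but not between probes of different genes.

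A gene was called when edgeR's quasi-likelihood test gave a Benjamini-Hochberg adjusted p of 0.05 or less over all 730 genes and the change was at least 1.5-fold. Under TQ 2 of the 9 NF-κB genes were called higher (NFKBIZ and TNFAIP3), beside 3.42% of all genes called higher, and none lower, beside 21.6%. Under 5-FU the same number, again NFKBIZ and TNFAIP3, was called higher and none lower, beside 10.1% of all genes in the upward and 10.1% in the downward direction. Combi had 4 of 9 called higher (RELA, NFKBIA, NFKBIZ and TNFAIP3) and none lower, beside 13.6% and 6.58% of all genes. SARB had 1 called higher (TNFAIP3) and none lower, beside 8.63% and 20%. Between SARB and Combi, 3 were called lower in SARB (RELA, NFKBIA and BIRC3) and none higher, beside 11.2% and 0.959%.

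The median log2 fold change of the 9 genes was 0.19 for TQ, 0.07 for 5-FU, 0.78 for Combi and -0.03 for SARB, where the median of all 730 genes was -0.47, -0.27, -0.10 and -0.41. With TMM normalization in place of the housekeeping genes the all-gene medians moved to -0.02, -0.07, -0.02 and -0.07, so that log2 fold changes against the control were higher by about the difference between these medians. The calls over all genes then went from 25 higher and 158 lower to 79 and 44 for TQ, from 74 and 74 to 104 and 41 for 5-FU, and from 63 and 146 to 120 and 68 for SARB. For SARB against Combi they went from 7 and 82 to 39 and 54. Under TMM the NF-κB genes called higher numbered 6 for TQ, 2 for 5-FU, 5 for Combi and 4 for SARB.

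**Figure D1:**
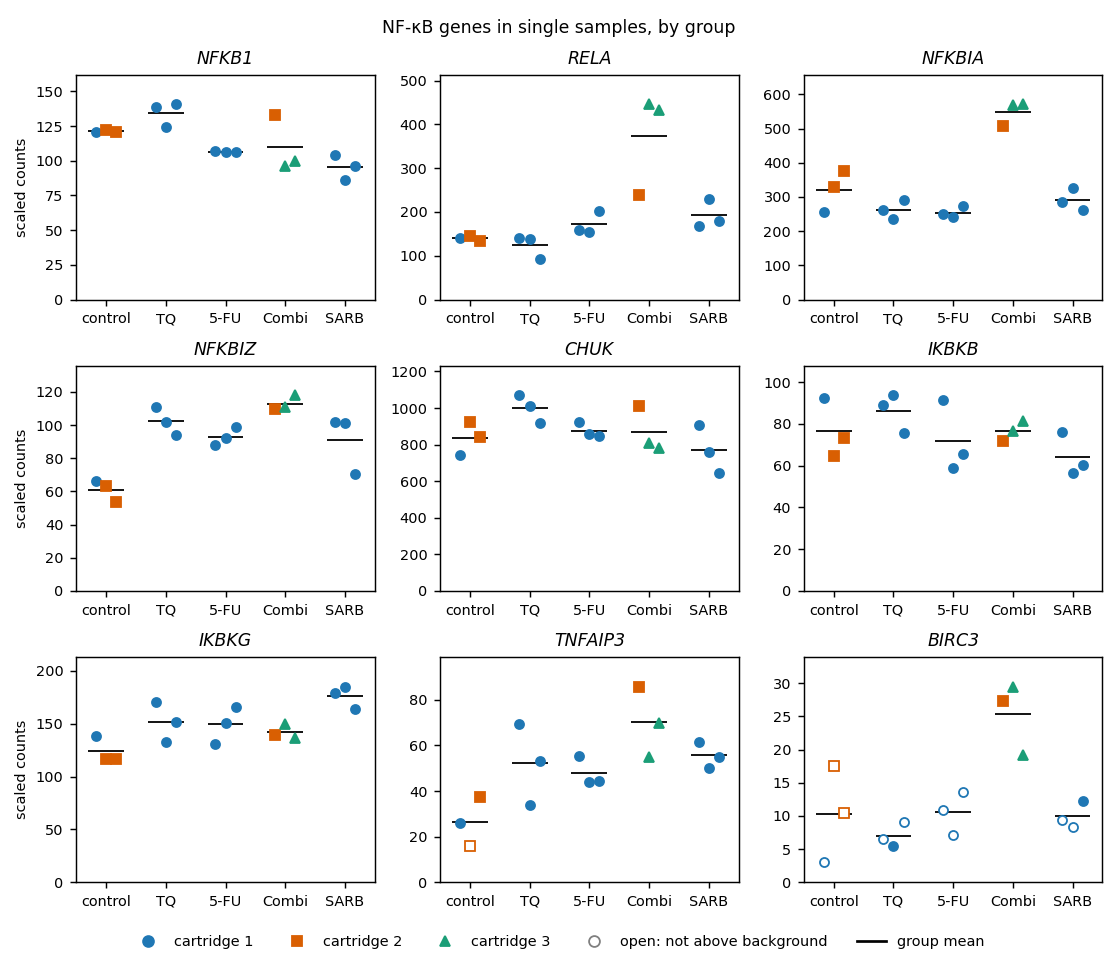
Scaled counts (linear axis from 0) of the 9 NF-κB genes in each of the 15 samples, with the 3 replicates of a group side by side in the order of their numbers, the group mean as a line, the cartridge as symbol and colour, and open symbols for values not above the negative probes. RELA and NFKBIA stand above all other groups in the 3 Combi samples, and NFKBIZ lies above all 3 control samples in every treated sample.

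Of the subunits RELA was called and NFKB1 was not. RELA encodes p65, the subunit with the transactivation domain. Its scaled counts were 140, 145 and 134 in the control, 141, 138 and 92.5 under TQ, 160, 154 and 203 under 5-FU, 238, 447 and 433 under Combi and 168, 230 and 180 under SARB. Every Combi sample was above every sample of the other groups, and the 5-FU and SARB samples were all above the control, whose 3 values lay within a narrow band. RELA rose under Combi by a log2 fold change of 1.43 (SE 0.21; edgeR quasi-likelihood adjusted p = 1.74e-05), from 140 ± 5.33 to 373 ± 117 scaled counts (SD, n = 3). Within Combi the sample on the second cartridge was the low one, and with the cartridge as a block the value was 0.77 (adjusted p = 0.0328), still a call. Against the control the log2 fold change was 0.45 for SARB (95% interval 0.00 to 0.90; adjusted p = 0.0992), 0.30 for 5-FU (adjusted p = 0.335) and -0.16 for TQ (adjusted p = 0.571), none of them a call, and TMM gave 0.80, 0.48 and 0.31, of which that for SARB was a call. In the order of the group means, Combi stood first, followed by SARB, 5-FU, control and TQ, where SARB and 5-FU overlapped in range and so did control and TQ.

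NFKB1 encodes p105, the precursor of the p50 subunit. The scaled counts of NFKB1 were 121, 122 and 121 in the control, 139, 124 and 141 under TQ, 107, 106 and 106 under 5-FU, 133, 96 and 100 under Combi and 104, 86.3 and 96.2 under SARB. The TQ samples were all above and the 5-FU and SARB samples all below the control, while Combi 1 lay above it and Combi 2 and Combi 3 below. No comparison gave a call: the log2 fold changes against the control ran from -0.34 for SARB (95% interval -0.66 to -0.02; adjusted p = 0.081) to 0.14 for TQ, and TMM gave 0.02 and 0.60, the latter a call. The highest group mean was 1.41 times the lowest for NFKB1 and 3.01 times for RELA.

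Among the inhibitors, NFKBIA encodes IκBα, the main cytoplasmic inhibitor, which is resynthesised after NF-κB activation. For NFKBIA the scaled counts were 255, 329 and 376 in the control, 263, 234 and 290 under TQ, 249, 240 and 272 under 5-FU, 507, 569 and 572 under Combi and 286, 326 and 261 under SARB. The 3 Combi samples lay above all 12 others, and the other 4 groups overlapped one another. NFKBIA rose under Combi by a log2 fold change of 0.78 (SE 0.14; edgeR quasi-likelihood adjusted p = 0.000144), from 320 ± 61.1 to 549 ± 36.7 scaled counts. With the cartridge as a block the value was 0.52 (adjusted p = 0.0388), under 1.5-fold and no longer a call. The other treatments gave -0.30 (TQ, adjusted p = 0.107), -0.34 (5-FU, adjusted p = 0.0852) and -0.15 (SARB, adjusted p = 0.412), and TMM turned the first and the last to 0.17 and 0.21.

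NFKBIZ encodes IκBζ, an inducible nuclear IκB protein that acts as a cofactor at a subset of NF-κB target genes. Its scaled counts were 66.1, 63.2 and 53.8 in the control, 111, 102 and 94 under TQ, 87.9, 92.2 and 98.8 under 5-FU, 110, 111 and 118 under Combi and 102, 101 and 70.4 under SARB. All 12 treated samples were above the 3 control samples, and SARB 3 came closest to them. NFKBIZ rose by log2 fold changes of 0.89 under Combi (SE 0.17; edgeR quasi-likelihood adjusted p = 0.000388), 0.74 under TQ (SE 0.18; adjusted p = 0.00539) and 0.61 under 5-FU (SE 0.18; adjusted p = 0.0154). Under SARB the value was 0.55 (adjusted p = 0.0198), which is under 1.5-fold, and it was a call under TMM (0.89), in DESeq2 (0.90), with housekeeping genes of at least 100 counts only (0.59), in limma on the authors' signal (0.71), and without SARB 3 (0.73) or control 1 (0.61). The group means were 61 ± 6.43 in the control against 113 ± 4.43 under Combi, 102 ± 8.5 under TQ, 93 ± 5.5 under 5-FU and 91 ± 17.8 under SARB, with overlapping ranges between neighbours among the treated groups. The cartridge as a block left the Combi call (0.91, adjusted p = 0.0193) and ended those for TQ (0.62) and 5-FU (0.49), and the 5-FU call was also lost without 5-FU 3 (0.56) or control 3 (0.52).

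None of the 3 genes of the kinase complex was called in any comparison. CHUK encodes IKKα, the catalytic subunit that also drives the non-canonical branch. CHUK counted, after scaling, 741, 922 and 841 in the control, 1070, 1010 and 917 under TQ, 926, 859 and 845 under 5-FU, 1010, 809 and 782 under Combi and 909, 760 and 647 under SARB. Each treated group overlapped the control, and the log2 fold changes lay between -0.12 (SARB, adjusted p = 0.489) and 0.26 (TQ, adjusted p = 0.133). The highest group mean, that of TQ, was 1.29 times the lowest, that of SARB.

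IKBKB encodes IKKβ, the catalytic subunit of the canonical branch. After scaling IKBKB stood at 92.2, 64.5 and 73.2 in the control, 89.2, 93.7 and 75.8 under TQ, 91.2, 59.1 and 65.5 under 5-FU, 71.7, 76.8 and 81.4 under Combi and 76.3, 56.3 and 60.4 under SARB. The groups overlapped throughout, and against the control the log2 fold changes were 0.19, -0.08, 0.01 and -0.25 in that order, with a 95% interval of -0.40 to 0.42 for Combi.

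IKBKG encodes NEMO, the regulatory subunit that binds ubiquitin chains. A near-identical partial copy of the gene exists on the same chromosome, so the source of these counts is uncertain. They were 138, 117 and 117 in the control, 170, 133 and 152 under TQ, 131, 151 and 166 under 5-FU, 139, 150 and 136 under Combi and 179, 185 and 164 under SARB after scaling. Only the SARB samples were all above the control. The log2 fold change under SARB was 0.50 (SE 0.14; edgeR quasi-likelihood adjusted p = 0.0094), which passed the p threshold but not the 1.5-fold threshold, and it was a call under TMM (0.85), in DESeq2 (0.86) and without control 1 (0.59). The values for TQ, 5-FU and Combi were 0.26, 0.27 and 0.20 (adjusted p = 0.166, 0.186 and 0.362). Under TMM CHUK (0.72), IKBKB (0.66) and IKBKG (0.72) were called higher in TQ.

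TNFAIP3 was called in all 4 treatments. It encodes A20, a ubiquitin-editing enzyme that shuts down signalling from TNF and Toll-like receptors to IKK. The samples gave 26.1, 16.1 and 37.3 in the control, 69.6, 34 and 53.1 under TQ, 55.4, 43.8 and 44.5 under 5-FU, 85.8, 54.8 and 69.7 under Combi and 61.7, 50.3 and 55.1 scaled counts under SARB. The 5-FU, Combi and SARB samples were all above the control, TQ 2 overlapped it, and control 2 was not above the negative probes. TNFAIP3 rose by log2 fold changes of 1.39 under Combi (SE 0.30; edgeR quasi-likelihood adjusted p = 0.00108), 1.08 under SARB (SE 0.31; adjusted p = 0.00918), 0.90 under TQ (SE 0.33; adjusted p = 0.0381) and 0.86 under 5-FU (SE 0.32; adjusted p = 0.0492). The means went from 26.5 ± 10.6 in the control to 70.1 ± 15.5, 55.7 ± 5.71, 52.2 ± 17.8 and 47.9 ± 6.5, and the ranges of neighbouring treated groups overlapped. The raw counts in the control were 17, 12 and 25, so these changes rest on few molecules on the control side.

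The Combi call for TNFAIP3 remained with the cartridge as a block (1.70, adjusted p = 0.00915) and without any 1 of its samples (1.12 to 1.72). The other 3 calls were lost with the cartridge as a block (TQ 0.90, 5-FU 0.87, SARB 1.09). Without control 2 the SARB call was lost (0.81), and the TQ call was lost without TQ 1 (0.67), TQ 3 (0.84), control 1 (0.89) or control 2 (0.63). The 5-FU call was lost without any 1 of the 5-FU samples and without control 1 or control 2 (0.59 to 0.92). With counts under 20 set to 20 the TQ (0.64) and 5-FU (0.60) calls were lost, and those for Combi (1.13) and SARB (0.82) remained. With housekeeping genes of at least 100 counts only, the TQ (0.83) and 5-FU (0.85) calls were lost, and those for Combi (1.52) and SARB (1.11) remained.

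BIRC3 encodes cIAP2, a ubiquitin ligase recruited to TNF receptor complexes. It was above the negative probes in 5 of 15 samples, namely the 3 Combi samples, TQ 2 and SARB 3. Its scaled counts were 3.07, 17.5 and 10.5 in the control, 6.53, 5.48 and 9.09 under TQ, 10.9, 7.1 and 13.6 under 5-FU, 27.3, 29.5 and 19.2 under Combi and 9.43, 8.39 and 12.2 under SARB. The 3 Combi samples lay above all others, while the other 4 groups overlapped. Against the control Combi gave a log2 fold change of 1.26 (95% interval 0.26 to 2.25; edgeR quasi-likelihood adjusted p = 0.0521), which missed the threshold. It was a call under TMM (1.35), in DESeq2 (1.30), with housekeeping genes of at least 100 counts only (1.39), with the filter on low counts (1.25), in limma on the authors' signal (2.96) and without control 2 (1.88), whereas setting counts under 20 to 20 turned it to -0.21. No control sample was above background, so the size of this difference is poorly determined.

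**Figure D2:**
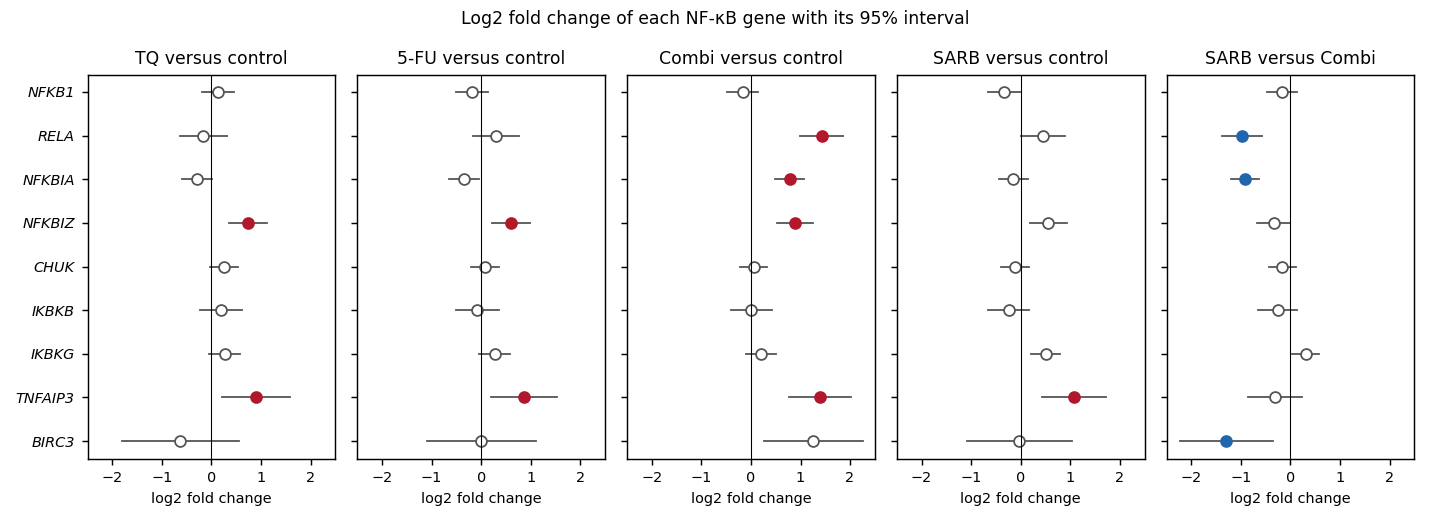
Log2 fold change (points) of the 9 NF-κB genes with the 95% interval (lines) in the 5 comparisons, where filled red points were called higher, filled blue points were called lower and open points were not called. Combi against control has 4 filled points, RELA, NFKBIA, NFKBIZ and TNFAIP3, and SARB against Combi has 3, RELA, NFKBIA and BIRC3.

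SARB and Combi were the only treatments given at a matched dose, 35 µM of the hybrid against 35 µM of each drug for 24 h, and 1 pair was compared. TQ at 40 µM and 5-FU at 15 µM were given at other doses, and their values stand beside the rest without a direct comparison. RELA was lower in SARB than in Combi by a log2 fold change of -0.98 (SE 0.20; edgeR quasi-likelihood adjusted p = 0.00169), 193 ± 32.9 against 373 ± 117 scaled counts. NFKBIA was lower by -0.93 (SE 0.14; adjusted p = 0.000111), 291 ± 32.7 against 549 ± 36.7. BIRC3 was lower by -1.29 (SE 0.45; adjusted p = 0.0478), 10 ± 2 against 25.3 ± 5.44, and this call was lost under TMM (-0.98) and without any 1 of the 6 samples (-1.48 to -1.16). The 3 Combi samples were above the 3 SARB samples for each of these genes.

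The other 6 genes were not called between SARB and Combi. In DESeq2 IKBKG was called higher in SARB (0.64, adjusted p = 0.00529) beside the lower RELA and NFKBIA, and BIRC3 was not called. The 95% intervals of the difference were -0.67 to -0.01 for NFKBIZ, -0.85 to 0.23 for TNFAIP3, -0.48 to 0.13 for NFKB1, -0.44 to 0.11 for CHUK, -0.65 to 0.13 for IKBKB and 0.03 to 0.58 for IKBKG, so the data allow differences in TNFAIP3 of up to 0.85 on the log2 scale. All SARB samples were on the first cartridge and no Combi sample was. With the cartridge as a block none of the 3 calls remained, with -0.32 for RELA, -0.34 for NFKBIA and 0.75 for BIRC3, which turned its sign. Compound and cartridge cannot be told apart in the direct comparison.

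Non-overlap of the replicates was frequent on the whole panel and is given here for the 9 genes beside it. Against the control 2 of 9 genes had no overlap under TQ (45.6% of all genes), 4 under 5-FU (44.1%), 5 under Combi (36%) and 5 under SARB (42.1%). Between SARB and Combi 5 of 9 had no overlap (33.8%). The share under 5-FU is that of the panel, and none of these counts is read as a result about the 9 genes.

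**Figure D3:**
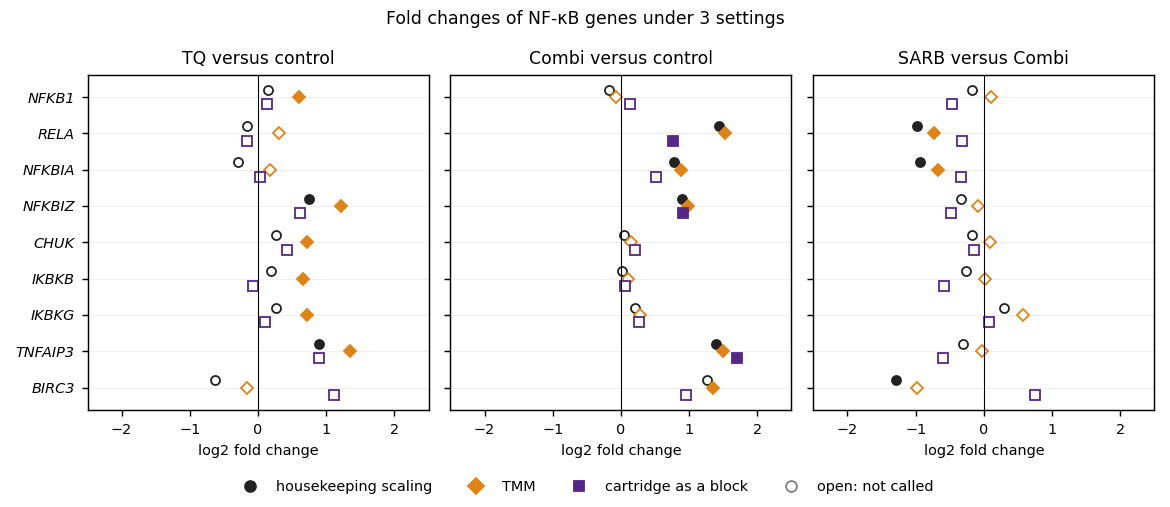
Log2 fold changes of the 9 NF-κB genes with housekeeping scaling (circles), TMM (diamonds) and the cartridge as a block (squares), where filled symbols were called and open ones were not. TMM lies to the right of housekeeping scaling for all genes in TQ, and RELA, NFKBIZ and TNFAIP3 stay filled in all 3 settings under Combi.

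Other genes of the pathway were sparse on the panel. Of 12 further core genes only MAP3K14 was measured, the kinase NIK that activates IKKα in the non-canonical branch. It rose under TQ from 142 ± 22.3 to 306 ± 75.3 scaled counts, a log2 fold change of 1.08 (SE 0.19; edgeR quasi-likelihood adjusted p = 0.00028), and remained a call with the cartridge as a block (1.11). It was not called in the other comparisons, but under TMM it was also called under 5-FU, under SARB and between SARB and Combi.

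Of 48 ligands, receptors and adaptors upstream of IKK 18 were on the panel. Against the control 0 were called higher and 1 lower under TQ, 1 and 0 under 5-FU, 3 and 0 under Combi, and 1 and 2 under SARB, with none called between SARB and Combi. The panel shares were 3.42% and 21.6%, 10.1% and 10.1%, 13.6% and 6.58%, and 8.63% and 20%, so that the 3 of 18 under Combi are near the background. Their median log2 fold changes were -0.60, -0.33, 0.02 and -0.39 against the control, beside the all-gene medians given above. CYLD, a deubiquitinase that like A20 restrains IKK, rose under 5-FU (0.59), Combi (0.88) and SARB (0.93), from 142 ± 28.5 to 214 ± 12.1, 263 ± 33.6 and 269 ± 24 scaled counts (edgeR quasi-likelihood adjusted p = 0.0053, 7.92e-05 and 4.92e-05). IL1RAP, the accessory chain of the interleukin-1 receptor, and IRAK2, a kinase behind it, rose under Combi (0.81 and 0.78; adjusted p = 0.0479 and 0.00391), but neither remained a call with the cartridge as a block (1.00 and 0.44), and the IL1RAP call was also lost without any 1 of the control samples, Combi 1 or Combi 2 (0.60 to 0.92). The CYLD call for 5-FU was lost without control 1 (0.44) or 5-FU 2 (0.55), at under 1.5-fold. TLR2 was called lower under TQ (-3.01) and SARB (-2.37), but it was above the negative probes in 2 samples only, and both calls were lost in DESeq2 (-2.33 and -2.01), with the cartridge as a block (-1.53 and -0.89) and without control 3 (-2.69 and -2.05). The TQ call was also lost without TQ 2 (-2.09) and with counts under 20 set to 20 (-0.76), and the SARB call without control 2 (-2.15), SARB 1 (-2.20) or SARB 3 (-1.68).

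Of 44 genes known to be induced by NF-κB 22 were on the panel. Against the control 3 were called higher and 2 lower under TQ, 6 and 1 under 5-FU, 4 and 0 under Combi, and 4 and 2 under SARB, beside panel shares of 3.42% and 21.6%, 10.1% and 10.1%, 13.6% and 6.58%, and 8.63% and 20%. The share called higher under Combi is near that of the panel. The medians were -0.47, 0.17, 0.27 and -0.28. Between SARB and Combi 0 were higher and 2 lower (panel 0.959% and 11.2%). IL8, the neutrophil chemokine now named CXCL8, rose under Combi from 21.7 ± 14.1 to 138 ± 13.6 scaled counts, a log2 fold change of 2.66 (SE 0.33; edgeR quasi-likelihood adjusted p = 1.71e-06), and by 1.42 under TQ and 1.39 under SARB. It was above the negative probes in 12 of 15 samples. Its control mean lay near the scaled background limits of the control samples (19.19, 35.5 and 37.25), so the size of these changes is poorly determined. With counts under 20 set to 20 it was still called higher under Combi (2.15), TQ (0.91) and SARB (0.88). It was lower in SARB than in Combi (-1.28, adjusted p = 0.00272), a difference that was 0.70 and no call with the cartridge as a block.

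FAS, a death receptor that p53 also induces, rose by 2.12 under 5-FU, 2.47 under Combi and 2.14 under SARB. PLAU, the urokinase protease, rose by 1.78, 1.58 and 1.61 in the same groups. GADD45B, a stress response gene, rose under TQ by 2.05 (144 ± 36.8 to 599 ± 84.3 scaled counts), or by 1.67 with the cartridge as a block. It was also called higher under 5-FU (0.61), a call that was not followed under the other settings. BCL2L1, which encodes the survival protein BCL-XL, and CCND1, which encodes cyclin D1, rose under 5-FU by 0.88 and 0.81, and the CCND1 call was lost with the cartridge as a block (0.38). CCND1 was also called higher under TQ (0.77) and SARB (0.95), and LIF under 5-FU (0.79). VEGFA, above the negative probes in 15 of 15 samples, was called lower under 5-FU (-0.61) and SARB (-0.63). These CCND1 calls in TQ and SARB and those of LIF and VEGFA were not followed under the other settings. PLAT, the tissue plasminogen activator, rose under Combi (1.20), was called lower under TQ (-1.06, lost with TMM and with the cartridge as a block) and was lower in SARB than in Combi (-1.60, or -0.43 and no call with that block). Of the colony-stimulating factors CSF2 was called lower under TQ and CSF3 under SARB, but they were above the negative probes in 2 and 0 of 15 samples, so no fold is given, and both calls were lost under TMM, in DESeq2, with counts under 20 set to 20 and with the cartridge as a block.

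The genes whose 5 group means were most like those of the called members were sought among the 404 other genes above the negative probes in all samples (405 for TNFAIP3 and BIRC3, which are not among them), by the root mean square difference of the centred log2 values. For RELA they were ATM (0.0712), the DNA double-strand break kinase, and DKK1 (0.177), a secreted WNT inhibitor. For NFKBIA they were RAD52 (0.0688) and BAMBI (0.147), for NFKBIZ CCNE1 (0.0523) was nearest, and for TNFAIP3 they were the decoy TRAIL receptor TNFRSF10D (0.185) and CYLD (0.194). For BIRC3 RELA itself was nearest (0.137), followed by ATM (0.198), but the BIRC3 means of all groups except Combi rest on values mostly not above the negative probes.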

How the data were processed

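RNA of 15 HCT116 samples (50 ng each) was measured with the nCounter PanCancer Pathways panel. The authors deposited raw counts per probe, which were tested here, and a normalized signal table made in nSolver, in which the geometric mean of the negative probes was subtracted, low values set to 1 and the housekeeping genes used for scaling. That signal was used as an alternative only. A further deposited table holds the authors' fold changes and p-values and was not used.

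The 730 endogenous genes of all 5 groups were fitted together (R 4.3.3, edgeR 4.0.16, glmQLFit and glmQLFTest), with the geometric mean of 40 housekeeping genes as sample factor, Benjamini-Hochberg adjustment over 730 genes, and no filter on low counts. The SE is the log2 fold change over the root of F, and the 95% interval uses its total degrees of freedom. SDs are over scaled counts. Depth ranged from 135017 to 607782 endogenous counts, and intervals cover the spread between 3 replicates per group.

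Alternatives were TMM, DESeq2 1.42.0, limma 3.58.1 on the deposited signal, other low-count and housekeeping rules, cartridge and replicate blocks, and leaving out each sample. The edgeR script was tested on simulated counts. The members and lists were chosen with earlier results of these data known. Named were all members, of each list at most 4 genes called per comparison by size of change, and the 2 genes nearest in pattern to each called member, apart from items not reported here.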

Additional observations from a re-analysis of the deposited data

How the results depend on the processing

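Counts of NF-κB genes called moved with the setting. For TQ against the control the 2 calls became 6 under TMM, 5 in DESeq2, 1 with the housekeeping genes of at least 100 counts only, 1 with counts under 20 set to 20, and 0 with the cartridge as a block. For 5-FU the 2 calls became 1, 1 and 0 under the last 3 of these settings. For SARB the 1 call became 4 under TMM, 4 in DESeq2, 2 with the stricter housekeeping genes, 2 in limma on the authors' signal and 0 with the cartridge as a block, and the 3 calls of SARB against Combi became 0 with that block. The 4 calls for Combi stayed within 1.5 times (3 to 5 calls). The list counts moved too. The upstream genes called (1 for TQ, 1 for 5-FU, 3 for Combi, 3 for SARB and 0 for SARB against Combi) ranged over all settings from 0 to 5, 0 to 2, 1 to 4, 1 to 5 and 0 to 1 in that order. The induced genes called (5, 7, 4, 6 and 2) ranged from 2 to 6, 5 to 9, 4 to 7, 4 to 8 and 0 to 4 in that order. Of the 9 NF-κB genes, leaving out 1 sample at a time gave 1 to 2 calls for TQ, 0 to 1 for 5-FU, 4 to 5 for Combi, 0 to 3 for SARB and 2 in every case for SARB against Combi.

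The same omissions turned the sign of some small log2 fold changes. The values ran from -0.29 to 0.07 for IKBKB, from -0.01 to 0.15 for CHUK and from -0.42 to 0.62 for BIRC3 in 5-FU, from -0.07 to 0.13 for CHUK and from -0.10 to 0.16 for IKBKB in Combi, and from -0.45 to 0.58 for BIRC3 and from -0.25 to 0.00 for CHUK in SARB. Low counts limit BIRC3 and, in the control, TNFAIP3.

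Signs turned mainly for small log2 fold changes, such as -0.34 for NFKB1 in SARB and -0.30 for NFKBIA in TQ with housekeeping scaling. Larger values that turned were those of BIRC3, -0.63 in TQ, 1.26 in Combi and -1.29 in SARB against Combi. Under TMM and in DESeq2 the turned values were, in TQ, 0.31 and 0.34 for RELA and 0.17 and 0.21 for NFKBIA. In 5-FU they were 0.01 and 0.02 for NFKB1, 0.12 in both for IKBKB, and 0.19 and 0.21 for BIRC3. In SARB against the control they were 0.02 and 0.03 for NFKB1, 0.21 and 0.22 for NFKBIA, 0.11 and 0.12 for IKBKB, 0.23 and 0.24 for CHUK, and 0.37 and 0.39 for BIRC3. In SARB against Combi they were 0.10 and 0.17 for NFKB1, 0.01 and 0.09 for IKBKB, 0.09 and 0.16 for CHUK, and for TNFAIP3 0.04 in DESeq2 alone. With the stricter housekeeping genes BIRC3 in SARB was 0.00, with counts under 20 set to 20 BIRC3 in Combi was -0.21, and on the authors' signal BIRC3 was 0.34 in TQ and 0.78 in SARB and CHUK was -0.04 in Combi. With the cartridge as a block NFKBIA was 0.03, IKBKB -0.08 and BIRC3 1.11 in TQ, BIRC3 was 1.74 in 5-FU, NFKB1 was 0.13 in Combi, NFKBIA was 0.18, CHUK 0.06 and BIRC3 1.70 in SARB, and BIRC3 was 0.75 in SARB against Combi. The cause was not tested for any of these.

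The replicate numbers did not pair the samples, since the correlations of same-numbered samples ran from -0.29 to 0.27. With the replicate block the count of calls was 2 for TQ, 2 for 5-FU, 4 for Combi, 1 for SARB and 2 for SARB against Combi, where BIRC3 (-1.31, adjusted p = 0.0697 in edgeR) was no longer called, and BIRC3 in 5-FU was 0.03.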
